A study of Mus musculus with 8 samples.

Results

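The genes described here are 35 genes of the simple epithelium that lines the uterine lumen, out of 27179 genes counted in whole mouse uterus at postnatal day 10. They were taken by symbol from a list of keratins, cell adhesion molecules, claudins, other junction and polarity proteins, splicing factors, transcription factors, membrane proteases with their inhibitors, and apical proteins, and the rule itself tests no measured value. All 35 were found and all 35 passed the filter on low counts, which left 16658 genes for testing. Both groups carried the floxed Ezh2 allele (Ezh2 f/f). The 4 controls carried nothing further in the labels, and the 4 conditional knockouts (cKO, Ezh2 f/f; Acre) also carried a Cre recombinase driven by Amhr2, a gene of the mesenchymal cells of the female reproductive tract. By the study's account the epithelium lies outside the domain of this Cre, and the members were listed as its genes, although other cells of the whole uterus can express some of them. Each library was made from the whole uterus, with epithelium, stroma, muscle and vessels mixed, and the labels do not say that replicates came from separate litters.

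A simple epithelium is a single sheet of polarised cells. Keratin filaments brace each cell, E-cadherin and EPCAM hold neighbours together, claudins and occludin seal the space between them, and polarity proteins separate the apical from the basolateral membrane. In the neonatal mouse uterus this sheet lines the lumen, and the glands arise from it after birth by budding into the stroma. EZH2 is the enzyme of polycomb repressive complex 2 that methylates histone H3, a mark of silenced genes. The comparison of cKO with control therefore asks which epithelial transcripts differ when Ezh2 is deleted from the neighbouring mesenchyme.

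Promoter sequences are shown for the members on which the results turn: Prom1 and Muc1, which passed the test, Cldn1, which came close to it, and Krt8, Krt18 and Epcam, which are abundant and commonly used to mark epithelium. RefSeq promoters (GRCm38.p6, 250 bases before to 50 bases after the annotated start, 5′ to 3′ on the strand of the gene) were given for 24 of the 35 members. Capitals mark CAGGTG or its reverse complement CACCTG, an E-box that can be bound by the ZEB and SNAI repressors of epithelial genes. For Prom1, which has more than 1 annotated start, the upstream one is shown.
Prom1 chr5:44101687-44101986 (minus strand): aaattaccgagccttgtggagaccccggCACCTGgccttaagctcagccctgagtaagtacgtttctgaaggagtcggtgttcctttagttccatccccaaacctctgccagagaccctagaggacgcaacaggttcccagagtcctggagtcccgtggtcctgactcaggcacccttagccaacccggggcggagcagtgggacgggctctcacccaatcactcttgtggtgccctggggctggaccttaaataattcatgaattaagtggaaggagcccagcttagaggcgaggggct
Muc1 chr3:89228806-89229105 (plus strand): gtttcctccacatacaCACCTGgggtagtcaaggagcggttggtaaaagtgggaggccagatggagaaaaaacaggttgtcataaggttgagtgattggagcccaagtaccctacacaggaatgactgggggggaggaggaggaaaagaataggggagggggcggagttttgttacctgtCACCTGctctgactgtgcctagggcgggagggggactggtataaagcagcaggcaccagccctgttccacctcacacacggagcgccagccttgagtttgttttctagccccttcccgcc
Cldn1 chr16:26371790-26372089 (minus strand): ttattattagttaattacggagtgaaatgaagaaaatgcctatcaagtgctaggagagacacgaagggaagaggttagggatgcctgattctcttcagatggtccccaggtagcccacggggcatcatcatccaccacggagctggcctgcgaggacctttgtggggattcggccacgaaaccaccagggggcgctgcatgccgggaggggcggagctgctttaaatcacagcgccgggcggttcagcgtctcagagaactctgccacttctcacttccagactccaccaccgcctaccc
Krt8 chr15:102004293-102004592 (minus strand): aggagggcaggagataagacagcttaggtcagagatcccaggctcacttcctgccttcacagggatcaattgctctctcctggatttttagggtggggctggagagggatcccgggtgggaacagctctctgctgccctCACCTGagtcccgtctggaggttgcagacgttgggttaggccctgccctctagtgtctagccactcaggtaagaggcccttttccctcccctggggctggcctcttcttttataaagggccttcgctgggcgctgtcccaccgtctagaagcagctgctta
Krt18 chr15:102027966-102028265 (plus strand): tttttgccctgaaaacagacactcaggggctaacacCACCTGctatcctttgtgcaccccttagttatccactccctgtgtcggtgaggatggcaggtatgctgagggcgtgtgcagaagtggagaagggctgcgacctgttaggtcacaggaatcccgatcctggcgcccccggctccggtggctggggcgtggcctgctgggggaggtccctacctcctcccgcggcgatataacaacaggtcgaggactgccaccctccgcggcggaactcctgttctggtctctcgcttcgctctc
Epcam chr17:87635729-87636028 (plus strand): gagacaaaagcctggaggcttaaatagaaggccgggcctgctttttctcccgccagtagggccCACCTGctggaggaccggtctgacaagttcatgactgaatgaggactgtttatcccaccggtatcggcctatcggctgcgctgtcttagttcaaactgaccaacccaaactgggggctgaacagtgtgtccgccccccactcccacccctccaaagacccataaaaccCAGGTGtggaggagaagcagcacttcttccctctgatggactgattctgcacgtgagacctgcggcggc
The E-box letters stood in the promoters of 19 of 24 members (79.2%), against 2740 of the 12576 tested genes with a promoter (21.8%) and 6098 of all 27025 genes with one (22.6%). Of the printed promoters, that of Cldn1 held none. A total of 3 motifs was searched on both strands. GGGCGG, the letters of a GC box, stood in 18 of 24 members (75.0%), against 64.9% of tested genes and 38.2% of all genes. AACCGGTT, letters bound by grainyhead-like factors, stood in 0 of 24 members, against 0.262% of tested genes and 0.174% of all genes. The motifs do not overlap one another, a match is a run of letters and not a measured site, and a gene with several starts was counted if any of them matched. The members' promoters had a median G and C content of 61.2%, against 61.3% for tested genes, and a median of 16.5 CpG dinucleotides, against 21 for tested genes. For a gene with several starts, the highest value of each measure entered these medians.

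The libraries held 25287141 to 36685807 counts. Levels are given as CPM, counts scaled to the library total with TMM factors. On the library totals alone, without TMM factors, 3 counts in a library corresponded to 0.0818 to 0.119 CPM. Ezh2 stood at 49.5, 40.5, 54.7 and 35.4 CPM in controls 1 to 4 and 30.4, 38.0, 40.7 and 38.0 CPM in cKO 1 to 4, and the groups overlapped (log2 fold change -0.29, SE 0.13, 95% interval -0.58 to 0.01, adjusted p = 0.247). Counts of the whole gene also take in reads from cells without Cre and from exons outside the floxed part. Fat marker genes summed to 2.02 to 3.48 CPM in the controls and to 77.2, 178, 79.6 and 4.06 CPM in cKO 1 to 4, so cKO 1 to 3 stood apart. The sum in cKO 4 was also above every control, as were its Adrb3 (2.10 CPM) and Fabp4 (1.61 CPM). Its Adipoq (0.0350 CPM, 1 count) was below every control, and its Plin1, Cidec, Retn and Lep lay within the range of the controls. Of the 5 fat markers tested only Adrb3, an adrenergic receptor of fat cells, passed (log2 fold change 1.34, SE 0.20, 95% interval 0.90 to 1.78, adjusted p = 0.00204), against 2.62% of all genes called higher. Its mean was 1.06 ± 0.116 CPM in controls and 2.67 ± 0.533 CPM in cKO, without overlap of the genotypes. The call held in each of the 8 fits that left out 1 library. Adipoq, Plin1, Fabp4 and Cidec had larger log2 fold changes (6.07, 5.98, 5.56 and 5.08) but did not pass (adjusted p = 0.0573 to 0.0765). Among those only Fabp4 was without overlap, and 5.90% of all genes were higher without overlap. The part of fat tissue in the results below was not tested, and calls that changed without a single library are given beside the gene.

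Across the epithelial genes, 2 of 35 fell in cKO, Prom1 and Muc1, and 0 rose (edgeR quasi-likelihood test, Benjamini-Hochberg adjusted p under 0.05). Over all genes tested, 2.71% fell and 2.62% rose by the same rule. None of the 35 passed the adjusted threshold together with a 2-fold change, against 1.30% of all genes. At an unadjusted p under 0.05, 3 members were lower and 7 higher (8.57% and 20% of members, against 9.86% and 11.4% of all genes). DESeq2 called 3 lower and 2 higher, and over all genes it called 4.28% lower and 4.76% higher. With limma-voom 3 were lower and 0 higher, against 2.58% and 2.41% of all genes.

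The fitted differences were small on the log2 scale. They ran from -0.43 (Prom1) to 0.45 (Grhl1), with a median of 0.10, against a median of 0.00 for all genes. The sign was positive for 25 members and negative for 10, and it was positive for 50.1% of all genes tested. When each library was left out in turn, the median ran from 0.05 (without cKO 4) to 0.15 (without control 3), with 0.06 without control 1 or control 2, and the number of negative signs ran from 6 to 13. All 35 of the 95% confidence intervals lay within a 2-fold change in either direction, and 28 lay within 1.5-fold. Over all genes tested, the median width of such an interval was 0.41 on the log2 scale, so narrow intervals were not particular to the members. The 8 libraries of the genotypes did not overlap for 2 members that were lower in cKO, Muc1 and Prom1, and for 1 that was higher, Krt19. Over all genes tested, 6.43% did not overlap and were lower and 5.90% did not overlap and were higher.

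**Figure D1:**
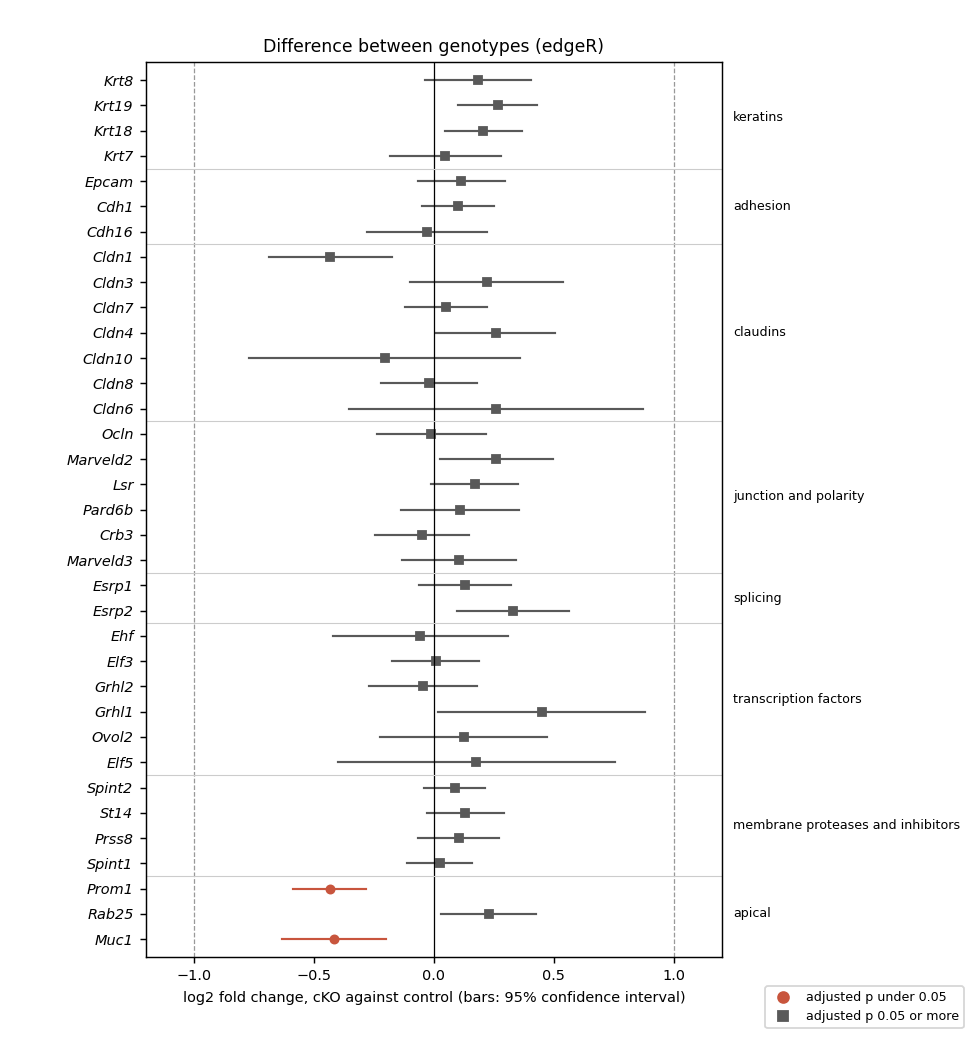
Log2 fold change of cKO against control (x axis) for the 35 genes, grouped by role, with 95% confidence intervals as bars. Prom1 and Muc1 (circles) are the genes with an adjusted p under 0.05, and every interval lies between the dashed lines at a 2-fold change.

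The summed level of the 35 genes was 2576, 2568, 2989 and 2923 CPM in controls 1 to 4 and 2843, 2621, 2912 and 3256 CPM in cKO 1 to 4. The groups overlapped, with means of 2764 ± 223 (SD, n = 4) and 2908 ± 263 CPM and a ratio of 1.05. In whole tissue, fewer epithelial cells and less RNA per epithelial cell cannot be told apart, and neither can a rise in one and a fall in the other. Control 1 and control 2 were each the lowest library for 13 of 35 members, and cKO 4 was the highest for 17.

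**Figure D2:**
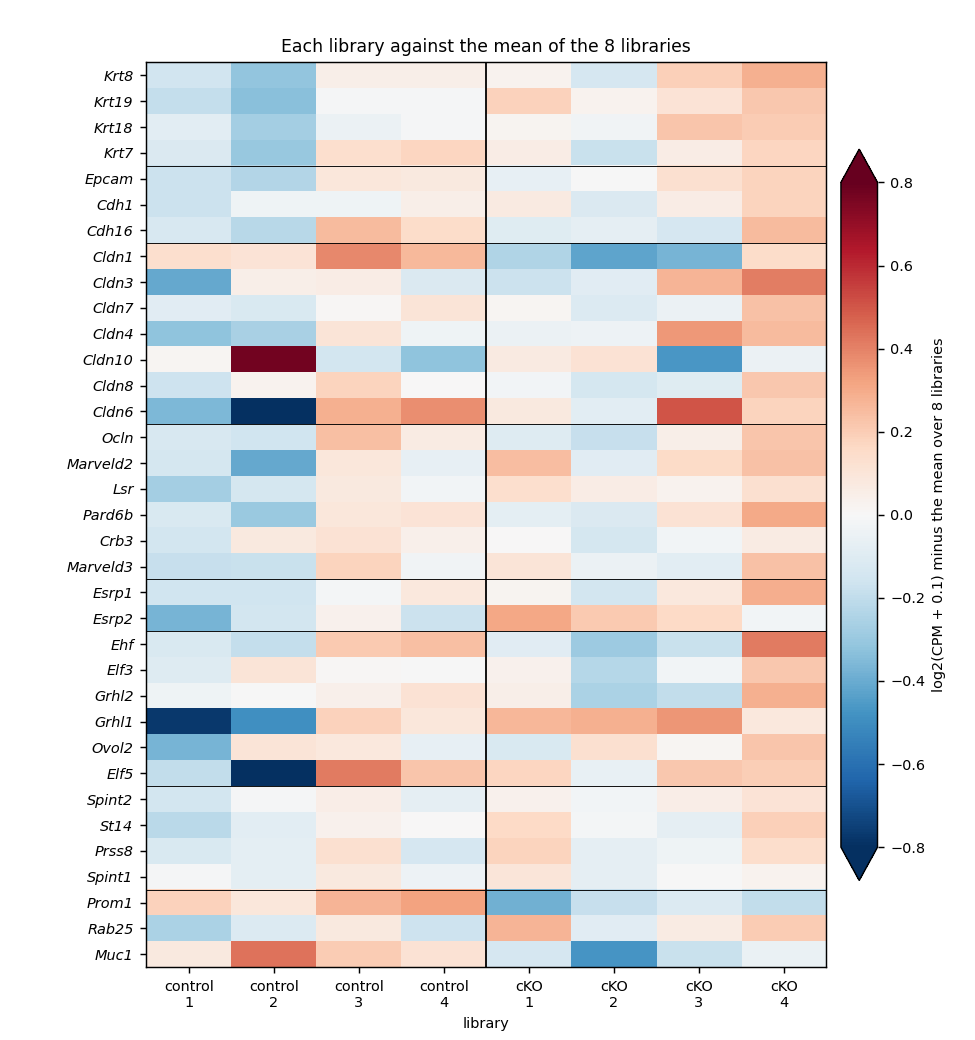
Difference of each library from the mean of all 8 libraries, on the log2(CPM + 0.1) scale, for the 35 genes (rows, by role) and 8 libraries (columns). Controls 1 and 2 are below the mean (blue) for most genes and cKO 4 above it (red), while Prom1, Muc1 and Cldn1 are higher in the controls than in cKO 1 to 3.

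Levels between genes were compared per length, as CPM per kilobase of union exon in the controls. Krt8 (196) and Krt19 (167) were the highest, followed by Spint2 (124), Krt18 (121) and Epcam (91.3). Ovol2 (1.52), Grhl1 (1.05) and Elf5 (0.585) were the lowest, and the highest and lowest gene differed 335-fold. Of the 34 neighbouring pairs in this order, 26 overlapped over the 4 control libraries and 8 did not. Of the keratins, 3 were thus among the 4 highest members per length, while Krt7 (13.8) ranked 21 of 35, and 3 transcription factors were the lowest.

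**Figure D3:**
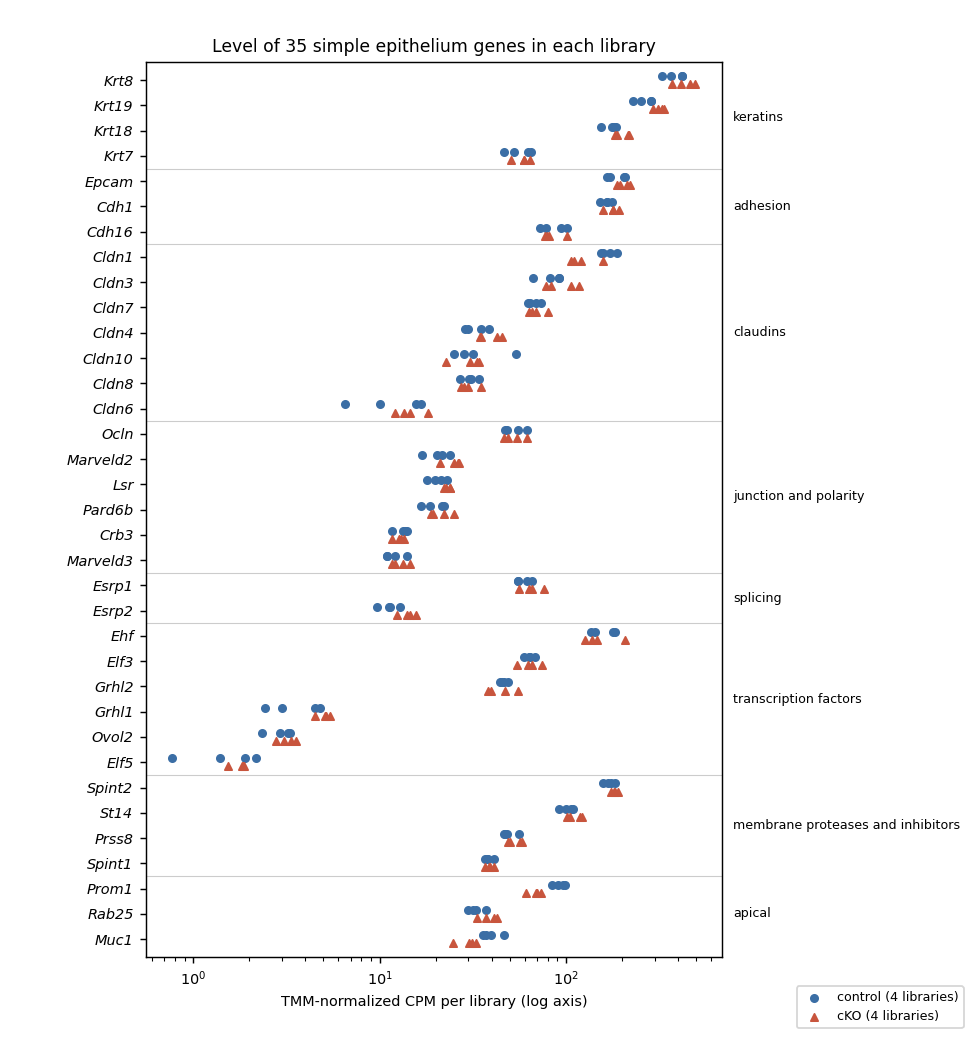
TMM-normalized CPM (x axis, log scale) of the 35 genes in each library, grouped by role, with controls as circles and cKO as triangles. The groups lie side by side for most genes, and the 4 cKO libraries of Prom1 (60.7 to 73.7 CPM) and Muc1 (24.7 to 33.0 CPM) lie below all 4 controls.

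Among the 4 keratins, which form the filaments of simple epithelia, none passed the test and all 4 had a positive sign. Krt8, the most abundant member, stood at 367, 328, 421 and 421 CPM in controls 1 to 4 and 415, 371, 464 and 495 CPM in cKO 1 to 4. Its groups overlapped (log2 fold change 0.18, SE 0.10, 95% interval -0.04 to 0.40, adjusted p = 0.319). Krt19, a small acidic keratin that is also on the mesothelium marker list, stood at 253, 229, 287 and 286 CPM in controls 1 to 4 and 328, 295, 311 and 336 CPM in cKO 1 to 4, and every cKO library was above every control. Its mean was 264 ± 27.9 CPM in controls and 317 ± 18.2 CPM in cKO (log2 fold change 0.27, SE 0.08, 95% interval 0.10 to 0.43, adjusted p = 0.0657), so it did not pass the test, although DESeq2 called it. The other 7 mesothelium markers summed to 214 to 323 CPM in controls and 280 to 302 CPM in cKO, so their sums overlapped, and 0 of the 7 was without overlap between the genotypes. Krt18, the partner of keratin 8, had a log2 fold change of 0.21 (0.04 to 0.37) and Krt7 one of 0.05 (-0.18 to 0.28), with 95% intervals in parentheses here and in what follows. Mean levels in controls and cKO (± SD, n = 4, as for the mean levels of every gene below) were 174 ± 13.5 and 201 ± 17.4 CPM for Krt18 and 56.6 ± 8.59 and 58.6 ± 5.80 CPM for Krt7. The 4 keratins together had means of 879 ± 94.7 and 1013 ± 89.7 CPM, a ratio of 1.15, with overlapping libraries.

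Of the 3 adhesion genes, none passed the test. Epcam, a homophilic adhesion molecule, stood at 173, 166, 208 and 206 CPM in controls 1 to 4 and 187, 195, 213 and 221 CPM in cKO 1 to 4. The groups overlapped (log2 fold change 0.11, SE 0.08, 95% interval -0.07 to 0.30, adjusted p = 0.456). Cdh1, which encodes E-cadherin of the adherens junction, had a log2 fold change of 0.10 (-0.05 to 0.25). Cdh16, a cadherin of kidney and other ductal epithelia, had one of -0.03 (-0.28 to 0.22). Levels in controls and cKO were 165 ± 10.2 and 177 ± 14.5 CPM for Cdh1 and 86.5 ± 13.3 and 84.8 ± 11 CPM for Cdh16.

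The 7 claudins, which set the permeability of tight junctions, held 1 gene with a difference near the threshold. Cldn1, a sealing claudin, stood at 157, 155, 188 and 172 CPM in controls 1 to 4 and 121, 107, 111 and 159 CPM in cKO 1 to 4. The values of cKO 1, 2 and 3 lay below every control, while cKO 4 lay within the control range. The fitted difference did not pass (log2 fold change -0.43, SE 0.12, 95% interval -0.69 to -0.17, adjusted p = 0.0593), and without cKO 4 it was -0.58 with an adjusted p of 0.00123. DESeq2 and limma-voom called it lower with all 8 libraries. cKO 4 was also the cKO library with the lowest fat marker sum. Its sums of stromal markers (9894 CPM, against 12576 to 12676 CPM in cKO 1 to 3) and endothelial markers (668 CPM, against 794 to 854 CPM) were likewise the lowest of the cKO libraries. The part of these tissues was not tested. Cldn3 and Cldn4, receptors for a Clostridium enterotoxin, had log2 fold changes of 0.22 (-0.10 to 0.54) and 0.26 (0.01 to 0.51). Cldn6 had 0.26 (-0.35 to 0.87), Cldn7 had 0.05 (-0.12 to 0.22), and Cldn8 had -0.02 (-0.22 to 0.18). Cldn10, a channel-forming claudin, had -0.21 (-0.77 to 0.36), with control 2 at 54.0 CPM above the other libraries. The mean levels in the 2 genotypes, control first, were 83.0 ± 11.9 and 96.6 ± 18.8 CPM for Cldn3, 33.1 ± 4.61 and 39.6 ± 5.56 CPM for Cldn4 and 12.2 ± 4.78 and 14.6 ± 2.63 CPM for Cldn6. They were 67.3 ± 4.78 and 69.7 ± 7.43 CPM for Cldn7, 30.6 ± 2.94 and 30.1 ± 3.49 CPM for Cldn8 and 34.9 ± 13.0 and 30.2 ± 5.16 CPM for Cldn10. With all 8 libraries 3 claudins had a negative and 4 a positive sign. That split was not stable, since the sign turned for Cldn7 without cKO 4 (-0.0293), for Cldn8 without control 3 (0.0357), cKO 2 or cKO 3, and for Cldn10 without control 2 (0.0822), and the log2 fold change of Cldn6 was 0.0555 without control 2. The sum of the 7 was 429 ± 32.9 CPM in controls and 405 ± 51.9 CPM in cKO.

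The 6 other junction and polarity genes gave 0 calls in either direction. Ocln, which encodes occludin of the tight junction strand, stood at 48.2, 47.2, 62.1 and 55.2 CPM in controls 1 to 4 and 49.0, 46.5, 54.3 and 61.5 CPM in cKO 1 to 4. Both groups covered nearly the same range (log2 fold change -0.01, SE 0.10, 95% interval -0.24 to 0.22, adjusted p = 0.967). At the tricellular contacts, Marveld2 (tricellulin) had a log2 fold change of 0.26 (0.03 to 0.50) and Lsr (angulin-1) one of 0.17 (-0.01 to 0.35). Marveld3, an occludin relative, had 0.10 (-0.13 to 0.34), and 0.035 without cKO 4. Crb3, an apical polarity protein, had -0.05 (-0.25 to 0.15), and Pard6b, of the PAR complex, had 0.11 (-0.14 to 0.35). They were -0.0059 without cKO 2 and 0.0148 without cKO 4. Control and cKO means were 20.7 ± 2.93 and 24.9 ± 2.59 CPM for Marveld2, 20.6 ± 2.14 and 23.2 ± 0.806 CPM for Lsr and 12.0 ± 1.49 and 12.9 ± 1.33 CPM for Marveld3, and 13.2 ± 1.03 and 12.7 ± 0.769 CPM for Crb3 and 19.8 ± 2.58 and 21.3 ± 2.94 CPM for Pard6b.

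Esrp1 and Esrp2 encode RNA-binding proteins that direct epithelial splicing. Esrp1 stood at 55.6, 55.6, 61.5 and 66.0 CPM in controls 1 to 4 and 63.1, 56.1, 66.0 and 75.9 CPM in cKO 1 to 4, with overlapping groups (log2 fold change 0.13, SE 0.09, 95% interval -0.06 to 0.32, adjusted p = 0.431). Esrp2 stood at 9.68, 11.3, 12.9 and 11.2 CPM in controls 1 to 4 and 15.7, 14.6, 14.0 and 12.4 CPM in cKO 1 to 4, and the groups overlapped only between control 3 and cKO 4. It did not pass the test (log2 fold change 0.33, SE 0.11, 95% interval 0.10 to 0.56, adjusted p = 0.0982), but did so with DESeq2 and when cKO 4 was left out.

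None of the 6 transcription factors passed the test. Ehf, an ETS factor of epithelia, stood at 143, 137, 179.7 and 184 CPM in controls 1 to 4 and 146, 127, 138 and 208 CPM in cKO 1 to 4. The cKO group held both the lowest and the highest library, cKO 2 and cKO 4 (log2 fold change -0.06, SE 0.16, 95% interval -0.42 to 0.31, adjusted p = 0.876). The other ETS factors, Elf3 and Elf5, had log2 fold changes of 0.01 (-0.17 to 0.19) and 0.18 (-0.40 to 0.76). Grhl2, a grainyhead-like activator of junction genes, had -0.05 (-0.27 to 0.18). Its relative Grhl1, at 3.68 ± 1.16 CPM in controls and 5.04 ± 0.396 CPM in cKO, had the highest fitted value of the members, 0.45 (0.02 to 0.88), with an adjusted p of 0.217. Ovol2, a zinc finger repressor of mesenchymal genes, had 0.12 (-0.23 to 0.47), and 0.0264 without control 1. Mean levels, control before cKO, were 63.9 ± 3.72 and 64.2 ± 8.11 CPM for Elf3, 1.56 ± 0.616 and 1.78 ± 0.159 CPM for Elf5, 46.3 ± 2.08 and 44.9 ± 7.87 CPM for Grhl2 and 2.94 ± 0.441 and 3.20 ± 0.336 CPM for Ovol2.

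The membrane serine proteases and their inhibitors form one system at the cell surface. Spint2, a Kunitz-type inhibitor, stood at 159, 175, 183 and 167 CPM in controls 1 to 4 and 180.2, 174, 182 and 190.2 CPM in cKO 1 to 4, and the groups overlapped (log2 fold change 0.09, SE 0.06, 95% interval -0.04 to 0.21, adjusted p = 0.418). The log2 fold changes of the inhibitor Spint1, the protease St14 (matriptase) and its activator Prss8 (prostasin) were 0.02 (-0.11 to 0.16), 0.13 (-0.03 to 0.29) and 0.10 (-0.07 to 0.27). Their mean levels, control before cKO, were 38.4 ± 1.81 and 39.0 ± 1.85 CPM for Spint1, 102 ± 7.70 and 111 ± 9.92 CPM for St14 and 49.7 ± 4.43 and 53.4 ± 4.61 CPM for Prss8. All 4 genes had a positive sign and 0 passed the test.

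The 3 apical genes held both calls. Prom1 encodes prominin-1, a cholesterol-binding protein of membrane protrusions. It stood at 90.1, 84.5, 96.0 and 99.2 CPM in controls 1 to 4 and 60.7, 69.9, 73.7 and 69.3 CPM in cKO 1 to 4. Every cKO library was below every control, with means of 92.4 ± 6.49 CPM in controls and 68.4 ± 5.46 CPM in cKO (SD, n = 4). The gene fell by 0.43 on the log2 scale (log2 fold change -0.43, SE 0.07, 95% interval -0.59 to -0.28, adjusted p = 0.00361).

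Muc1, the transmembrane mucin of the luminal surface, stood at 36.1, 46.3, 39.5 and 37.1 CPM in controls 1 to 4 and 31.2, 24.7, 30.3 and 33.0 CPM in cKO 1 to 4. Again no cKO library reached the lowest control, with means of 39.8 ± 4.62 CPM in controls and 29.8 ± 3.59 CPM in cKO (SD, n = 4). It fell by 0.42 on the log2 scale (log2 fold change -0.42, SE 0.10, 95% interval -0.63 to -0.20, adjusted p = 0.0315). The call was close to the threshold and was lost without any one of controls 1, 2 and 3 or cKO 1, 2 and 3. It was also lost with the replicate number as a block. The log2 fold change of Muc1 was -0.47 to -0.33 over the 8 omissions, and Prom1 passed in each of them. Rab25, a small GTPase of apical recycling endosomes, had a log2 fold change of 0.23 (0.03 to 0.43), opposite in sign to the other two. Its level was 32.9 ± 3.28 CPM in controls and 38.6 ± 4.24 CPM in cKO. The sum of the 3 genes was 165 ± 7.15 CPM in controls (156 to 173) and 137 ± 6.88 CPM in cKO (128 to 143).

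To set each gene against the epithelium around it, its log2 level was taken relative to the mean log2 level of the other members in the same library. The genotypes did not overlap for 4 members that were lower in cKO, Cldn1, Prom1, Muc1 and Crb3, and for 1 that was higher, Krt19. Over all genes tested, 7.55% were lower without overlap on this scale and 2.13% were higher. The relative differences in the mean were -0.54 for Cldn1, -0.53 for Prom1, -0.51 for Muc1, -0.13 for Crb3 and 0.20 for Krt19. On this scale the value of Cldn1 in cKO 4, 1.72, also lay below the 4 controls, 1.98 to 2.06. These are descriptions without a test, since the reference was made from the members themselves.

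**Figure D4:**
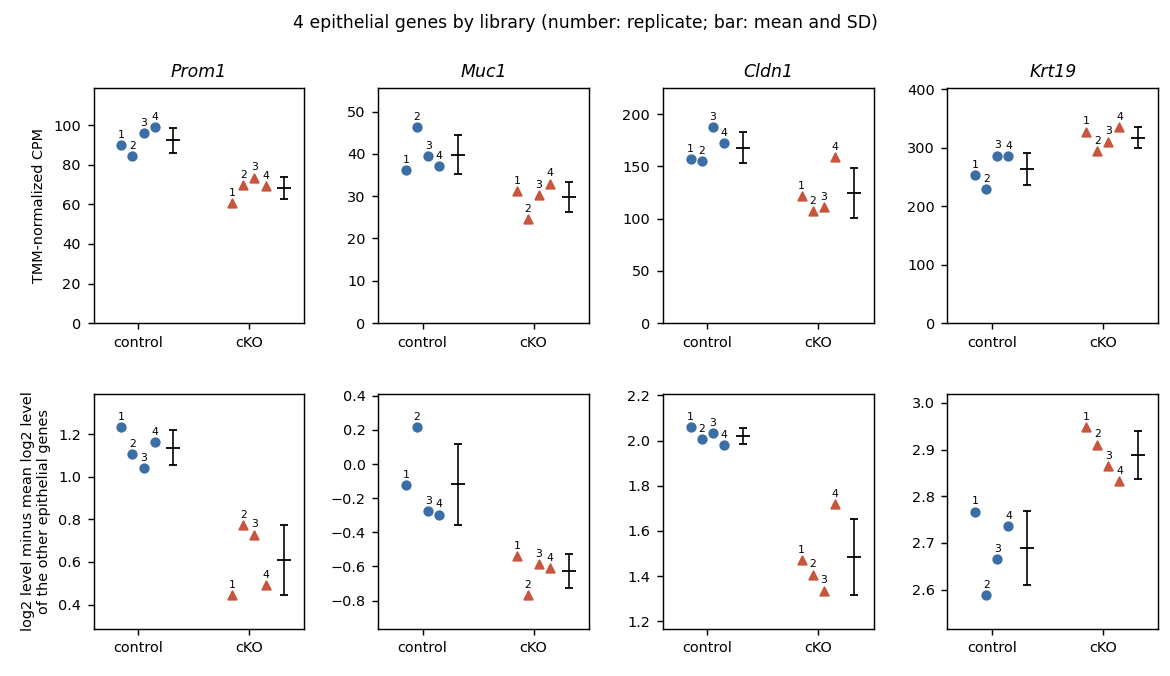
Prom1, Muc1, Cldn1 and Krt19 in each library (numbered points) with the mean and SD of each group, as TMM-normalized CPM (upper row, axis from 0) and as log2 level minus the mean log2 level of the other epithelial genes (lower row, axis not from 0). Cldn1 in cKO 4 (159 CPM) lies within the controls above and below them in the lower row.

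Beyond the 35, 52 further genes of epithelial junctions, polarity and the epithelial program were examined, of which 4 rose, 1 was called lower and 47 did not pass. Over all genes tested 2.62% were called higher and 2.71% lower. The gene called lower, Cldn2, a channel-forming claudin, was tested only because its 4 controls exceeded the filter of 0.2 CPM in 4 libraries, so the filter itself selected for a difference. It stood at 0.725, 0.580, 0.606 and 0.384 CPM in controls 1 to 4 and 0.0777, 0.0335, 0.154 and 0.0701 CPM in cKO 1 to 4, with 14 to 23 counts in each control and 1 to 5 in each cKO library (log2 fold change -2.68, SE 0.45, 95% interval -3.72 to -1.76, adjusted p = 0.00392). Among those that rose, Tmem30b, a subunit of lipid flippases, stood at 21.7, 22.8, 26.8 and 24.3 CPM in controls 1 to 4 and 32.1, 32.1, 40.5 and 35.2 CPM in cKO 1 to 4 (log2 fold change 0.55, SE 0.09, 95% interval 0.35 to 0.75, adjusted p = 0.00404). Grhl3, the third grainyhead-like factor, stood at 4.45, 3.40, 7.49 and 7.30 CPM in controls 1 to 4 and 11.8, 9.17, 12.0 and 9.28 CPM in cKO 1 to 4 (log2 fold change 0.89, SE 0.23, 95% interval 0.39 to 1.39, adjusted p = 0.0468). Evpl, which encodes envoplakin of the desmosome, rose less (log2 fold change 0.26, adjusted p = 0.0363), as did the polarity gene Llgl2 (log2 fold change 0.32, adjusted p = 0.035). Without overlap of the genotypes, 9 of the 52 were higher in cKO and 1, Cldn2, was lower, against 5.90% and 6.43% of all genes. The 9 were these 4 and 5 that did not pass, Cldn23 (log2 fold change 0.30, adjusted p = 0.0606), Perp (log2 fold change 0.31, adjusted p = 0.0718), Fxyd3 (log2 fold change 0.26, adjusted p = 0.0627), Ovol1 (log2 fold change 0.32, adjusted p = 0.134) and Ttc22 (log2 fold change 0.38, adjusted p = 0.108). When each library was left out in turn, Tmem30b passed in 8 of 8 fits, Grhl3 in 4, Llgl2 in 3 and Evpl in 2. All kept their direction, and the highest adjusted p of these fits was 0.0213, 0.14, 0.126 and 0.122. Grhl3 did not pass without control 1 or without cKO 1, 2 or 3, Llgl2 passed without control 2, cKO 2 or cKO 4, and Evpl passed without control 2 or cKO 4. Cldn2 was under the filter without any one control, so these fits do not bear on it.

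Of 13 genes with known roles in uterine epithelium, 1 fell, 2 rose and 10 did not pass, against 2.71% of all genes called lower and 2.62% higher. The same 3 were without overlap, against 6.43% of all genes lower and 5.90% higher. Foxa2, the transcription factor of uterine glands, stood at 2.14, 2.17, 2.25 and 1.62 CPM in controls 1 to 4 and 0.311, 0.301, 0.0924 and 0.385 CPM in cKO 1 to 4 (log2 fold change -2.91, SE 0.32, 95% interval -3.62 to -2.24, adjusted p = 0.000241). Every cKO library was below every control, at a mean of 0.272 CPM against 2.04 CPM, and cKO 3 held 3 counts, the floor used here. The secreted ligand Wnt7b (log2 fold change 0.57, adjusted p = 0.0126) and the endoderm and epithelial factor Sox17 (log2 fold change 0.35, adjusted p = 0.0211) rose. Over the 8 fits that each left out 1 library, Foxa2 and Wnt7b passed in 8 and Sox17 in 5, with adjusted p up to 0.0714 without control 1, cKO 2 or cKO 3. The other 10 did not pass, and in each the libraries of the genotypes overlapped. Calb1, a calcium-binding protein, stood at 162, 149, 136 and 119 CPM in controls 1 to 4 and 80.0, 89.3, 66.4 and 127 CPM in cKO 1 to 4, so that cKO 1 to 3 lay below every control and cKO 4 did not (log2 fold change -0.64, SE 0.19, 95% interval -1.08 to -0.21, adjusted p = 0.0942). Without cKO 4 it was -0.85 with an adjusted p of 0.00232. Lpar3, a lysophosphatidic acid receptor, had a log2 fold change of -0.43 (-0.77 to -0.10), and the homeobox factors Msx1 and Msx2 had 0.27 (0.02 to 0.51) and 0.48 (0.04 to 0.92). The intervals of these 4 genes left out 0, and those of the remaining 6 held it. The transcription factors Pax2, Pax8, Emx2 and Klf4 had 0.07 (-0.13 to 0.27), 0.00 (-0.20 to 0.21), 0.04 (-0.09 to 0.16) and 0.07 (-0.17 to 0.31), the ligand Wnt7a had 0.01 (-0.16 to 0.18), and the cytokine Lif, at 1.09 to 2.29 CPM, had 0.00 (-0.56 to 0.56).

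**Figure D5:**
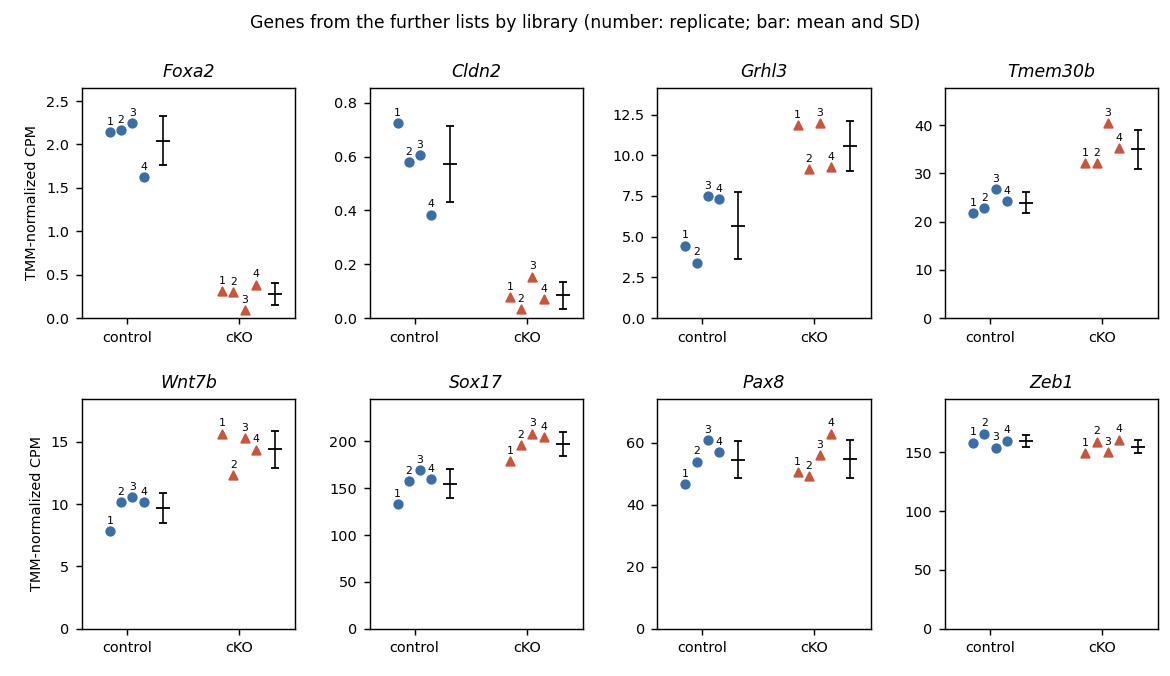
TMM-normalized CPM in each library (numbered points, axes from 0) with the mean and SD of each group for 8 genes of the further lists. Foxa2 and Cldn2 are lower in all 4 cKO libraries, Grhl3, Tmem30b, Wnt7b and Sox17 are higher in all 4, and Pax8 and Zeb1 overlap.

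The repressors that can bind the E-box printed above were measured as well. Zeb1 stood at 158, 166, 154 and 160.1 CPM in controls 1 to 4 and 149.7, 159, 150.4 and 161 CPM in cKO 1 to 4, with overlapping groups (log2 fold change -0.04, SE 0.05, 95% interval -0.15 to 0.07, adjusted p = 0.681). Zeb2 (log2 fold change -0.06, adjusted p = 0.648), Snai1 (log2 fold change -0.27, adjusted p = 0.292) and Snai2 (log2 fold change 0.08, adjusted p = 0.785) did not pass either. Of the 9 mesenchymal genes on that list, Prrx1 (log2 fold change 0.40, adjusted p = 0.00107) and Twist1 (log2 fold change 0.37, adjusted p = 0.0121) rose, and Twist2 (log2 fold change -0.49, adjusted p = 0.0149) and Cdh11 (log2 fold change -0.33, adjusted p = 0.0493) fell, against 2.62% of all genes called higher and 2.71% lower. Without overlap of the genotypes, Prrx1, Twist1 and the cadherin gene Cdh2 were higher and Twist2 was lower, and Cdh2 did not pass (log2 fold change 0.20, adjusted p = 0.239). For all genes these shares were 5.90% and 6.43%. Leaving out each library in turn, Prrx1 passed in 8 fits, Twist1 in 7, Twist2 in 6 and Cdh11 in 1. Twist1 and Twist2 did not pass without control 1 (adjusted p up to 0.0555 and 0.0613), nor Twist2 without cKO 1. Cdh11 passed without control 2 and had an adjusted p up to 0.162 otherwise, and it was not called with RLE size factors either.

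Markers of other epithelia were summed as well. Genes of stratified epithelium summed to 23.6 to 38.7 CPM in controls and 36.3 to 54.7 CPM in cKO, with 0 of 8 tested genes called and Krt6a at 0 counts. Krt15 gave the largest part of that sum in each library, at 10.1, 7.04, 18.8 and 19.3 CPM in controls 1 to 4 and 31.7, 19.7, 30.6 and 33.1 CPM in cKO 1 to 4, with every cKO library above every control, and did not pass (log2 fold change 1.05, SE 0.34, 95% interval 0.27 to 1.83, adjusted p = 0.126). Per kb of exon its mean in cKO was 16.9 CPM, against 14.0 CPM for Prom1 and 13.3 CPM for Muc1, so it was not low beside them. The log2 fold changes of the basal genes Trp63 and Krt14 were -0.22 (-0.49 to 0.04) and -0.16 (-1.08 to 0.75), that of Krt5 was 1.80 (0.24 to 3.37) with its highest values in cKO 1 and cKO 4, and over the list 3 genes had a negative and 5 a positive sign. Urothelial genes summed to 3.95 to 6.49 CPM and 7.66 to 9.90 CPM, with 0 of 4 called. Of these, the uroplakins Upk1a (log2 fold change 1.09, SE 0.31, 95% interval 0.41 to 1.78, adjusted p = 0.0706) and Upk2 (log2 fold change 1.07, SE 0.36, 95% interval 0.29 to 1.87, adjusted p = 0.108) were higher in every cKO library than in every control, which held for 5.90% of all genes. The other two, Upk3a and Krt20, overlapped and had log2 fold changes of 0.62 (-0.30 to 1.55) and -0.63 (-1.31 to 0.05). Genes of ciliated oviduct cells summed to 4.01 to 6.03 CPM and 3.85 to 4.39 CPM. Of these, Foxj1, the factor of motile cilia, was lower in every cKO library than in every control and did not pass (log2 fold change -0.78, SE 0.24, 95% interval -1.29 to -0.27, adjusted p = 0.0766), against 6.43% of all genes lower without overlap. The others tested, Ovgp1, Tekt1 and Dnah5, overlapped and did not pass, with -0.03 (-0.56 to 0.50), 0.22 (-0.40 to 0.85) and -0.38 (-1.45 to 0.68). Ccdc153 was under the filter. Ovary markers stood at 5.63 to 7.20 CPM and 5.46 to 10.7 CPM. The sums for stratified epithelium overlapped and those for urothelium did not, and their part in the values of the 35 genes was not tested. Stromal markers summed to 8252 to 10746 CPM in controls and 9894 to 12676 CPM in cKO. Of the 7 tested, Hoxa11 was lower (log2 fold change -0.49, adjusted p = 0.00522) and Col3a1 higher (log2 fold change 0.36, adjusted p = 0.0454). Over all genes 2.71% were called lower and 2.62% higher. Only Hoxa11 was without overlap of the genotypes, against 6.43% of all genes lower without overlap. Hoxa11 passed in 8 of the 8 fits without 1 library and Col3a1 in 2, those without control 2 or cKO 4, with an adjusted p up to 0.124 in the others. The smooth muscle and endothelial lists gave 0 calls. Their median log2 fold changes were 0.18 (6 of 6 positive) and 0.21 (5 of 6 positive). Those of the stromal and mesothelial lists were 0.22 (5 of 7 positive) and 0.17 (7 of 8 positive), against 0.10 for the 35 members. A positive median was thus not particular to the members.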

How the data were processed

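Total RNA of 8 whole uteri was made into stranded mRNA libraries and sequenced. Per the labels and methods, the authors trimmed reads (Trimmomatic), aligned them to GRCm38 (HISAT2) and counted them per gene (featureCounts). The deposited counts per gene are raw, and the strand setting and annotation release are not given in the sources used here. The deposited normalized log2 table and the fold changes and p-values of the authors' comparison were not used, only its gene symbols. The test was edgeR 4.0.16 on genes that exceeded 0.2 CPM in 4 or more libraries (quasi-likelihood, robust, TMM, R 4.3.3), with Benjamini-Hochberg adjustment over all 16658. Alternatives were limma 3.58.1, DESeq2 1.42.0, other scalings and filters, a replicate block and the omission of each library. For the further lists that omission was chosen after seeing the data. The test was run on simulated data: of 200 genes changed 1.5-fold it recovered 157, with 12 false calls, and of 200 changed 3-fold 195, with 9. All members were named, with values per library for genes that passed and for the highest of each role group. Values of Krt19 and Esrp2, and the genes Zeb1, Zeb2, Snai1, Snai2 and the uncalled genes of the further lists, were added after they were seen. 1 gene of the further lists is not reported here, and counts leave it out. Exon lengths came from GENCODE vM21. The members and lists were chosen with earlier results of these data known. The 3 promoter motifs were chosen during the analysis, and which promoters to print was decided after the values were seen. The labels give no batch. No 2 libraries agreed within sampling noise. P-values test the genotype difference against the spread between the libraries. The confidence intervals of the log2 fold changes come from the same fit and include that spread.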

Additional observations from a re-analysis of the deposited data

Results flagged for a closer look

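Over 36 genes and both genotypes, 72 groups of 4 libraries were screened for 1 library far from the other 3, and 2 were found, where chance gives about 5% of groups. Cdh16 stood at 101 CPM in cKO 4, against 77.5 to 80.9 CPM in the other cKO libraries. Elf5 stood at 1.54 CPM in cKO 2, against 1.83 to 1.88 CPM in the other cKO libraries. Their causes were not tested.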

How the results depend on the processing

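The count of 2 genes that fell was 2 to 3 under the other scalings, tests and filters, where 2.29% to 4.28% of all genes were called lower. It was 1 to 3 when each library was left out, against 1.34% (without control 1) to 4.94% (without cKO 4) of all genes. The count of 3 came without cKO 4. The count of 0 genes that rose became 2 with DESeq2 (Krt19 and Esrp2), against 4.76% of all genes, and 0 to 1 when each library was left out (Esrp2 without cKO 4). Without cKO 4, 5.78% of all genes were called higher, against 1.03% to 3.20% in the other omissions. With cKO 4 alone against the controls, the spread came from the controls only, 0.149% of 16122 genes were lower and 0.0682% higher, and the count of 0 members that fell therefore says nothing on stability. No member passed 2-fold with the adjusted threshold in any setting. With the replicate number as a block, 2 fell (Cldn1 and Prom1) and 2 rose (Krt19 and Cldn4), against 3.43% and 4.02% of all genes, while Muc1 had an adjusted p of 0.0508. The numbers were not taken to pair the libraries, since the correlations of same-numbered libraries were 0.0236, 0.113, -0.0035 and 0.194. Members whose sign in cKO 4 alone differed, values of 1 library, were Cdh16 (0.23), Cldn8 (0.21), Ocln (0.22), Crb3 (0.048), Ehf (0.38) and Grhl2 (0.26). With upper quartile factors Ocln was 0.005. Leaving out each library changed the sign of 11 uncalled members, with log2 fold changes of -0.0356 to 0.117 for Krt7, -0.13 to 0.05 for Cdh16, -0.0293 to 0.098 for Cldn7, -0.108 to 0.0357 for Cldn8, -0.335 to 0.0822 for Cldn10, -0.0957 to 0.0719 for Ocln, -0.0731 to 0.0833 for Elf3, -0.0326 to 0.368 for Elf5, -0.237 to 0.0304 for Ehf, -0.165 to 0.0303 for Grhl2 and -0.0036 to 0.055 for Spint1. Of the 24 that kept their sign, 15 moved by over 1.5 times, all uncalled, most of all Crb3 (-0.1021 to -0.0059), Pard6b (0.0148 to 0.1682), Ovol2 (0.0264 to 0.1818), Cldn6 (0.0555 to 0.4468) and Marveld3 (0.035 to 0.1872). The causes were not tested. Depth limits Cldn2, whose cKO libraries lie around the floor of 3 counts, and Foxa2, at that floor in cKO 3.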
